A study of Arabidopsis thaliana with 8 samples.

Results

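From the 27416 loci counted in an Arabidopsis thaliana RNA-seq series, 10 whose transcripts differed strongly between a phyB mutant line and wild type are described here. They are not all of the loci that differed as much. Transcripts of AT3G55900, AT3G55910, ABCG17 (AT3G55100), AT3G44006, AT2G03821, MRD1 (AT1G53480) and HEI10 (AT1G53490) were nearly absent or strongly reduced. Those of AT3G29633, AT3G01345 and AT2G01008 were strongly raised. The 10 loci were chosen by name from these read counts for their levels in phyB, and all 10 were found in the files. Their difference between phyB and wild type is therefore given as a description with no test. The comparisons tested ask whether the phyA phyB double mutant (phyAB) shares each change, and whether red light moves these transcripts in wild type. AT3G44006 was low in phyAB too, and that call held under every alternative tried. It is a description, since AT3G44006 had enough reads for testing only in wild type, and the WT red libraries also served to choose it. AT2G03821 was also called lower and AT3G01345 higher in phyAB, as in phyB. Both calls depended on single libraries, however, and their intervals reach below 2-fold. AT3G01345 had enough reads for testing only in the mutants. None of the other 7 was called at 2-fold or more in phyAB against wild type in red light, and HEI10 and MRD1 were slightly lower there. In that comparison AT3G29633 had too few reads for a fold, and the interval of ABCG17 includes reductions of over 2-fold.

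The groups were phyB, phyAB, wild type in red light (WT red) and wild type in darkness (WT dark), each of 2 libraries from whole seedlings in the Col-0 background. After 3 days of cold and 12 h of white light, the seedlings grew for 5 days in darkness on a medium with 1% sucrose, per the labels' protocols. The phyB, phyAB and WT red seedlings then received red light of 50 µmol per square metre per second for 1 h, and the WT dark seedlings stayed in darkness. The mutant alleles and the crossing history of the lines are unknown from the sources used here, and no mutant seedlings from darkness were analysed here. An effect of losing phyB and any other difference between the lines therefore cannot be told apart. No label says whether libraries of a group came from separate sowings, so the p-values reflect library-to-library spread that may be only technical. In whole seedlings, fewer cells of a type and less RNA per cell cannot be told apart.

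Phytochromes are photoreceptors that switch between an inactive form and an active form on absorbing red light. phyB is the main red-light receptor of seedlings, and phyA is abundant in the dark and falls on exposure to light. Active phytochromes enter the nucleus and bring down PIF transcription factors, so that light-regulated genes change soon after light arrives. The 10 loci have no common place in this pathway. By their RefSeq descriptions they encode an F-box family protein (AT3G55900), an ADP-ribosylation factor GTPase-activating protein (AT3G55910), an ABC transporter (ABCG17), a RING protein (HEI10) and a protein annotated for maternal effect embryo arrest (AT2G01008). MRD1 was named for its lower transcript level in the methionine-accumulating mutant mto1. AT3G44006, AT2G03821, AT3G29633 and AT3G01345 are uncharacterised.

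Library totals ranged from 15926547 to 22116924 reads. Levels are given as CPM, read counts brought to a common total on library sizes scaled by the trimmed mean of M values, and adjusted p-values are from edgeR's quasi-likelihood test with Benjamini-Hochberg adjustment. PHYA averaged 703 CPM in phyB, 124 CPM in phyAB, 467 CPM in WT red and 831 CPM in WT dark. PHYB averaged 63.3 CPM in phyB, 51.7 CPM in phyAB, 95.6 CPM in WT red and 81.0 CPM in WT dark. Both genes were thus lowest in phyAB, and PHYB was lower in both mutants than in wild type, while the deposited counts do not say which part of a gene was read. The 7 seedling tissue markers (epidermis, shoot apex, endodermis, root hair, phloem and apical hook) had group means of 3.12 to 226 CPM. Of the floral and meiotic markers, DMC1 had 5.54 to 7.77 CPM, ASY1 1.05 to 1.70 CPM and SPO11-1 0.776 to 1.24 CPM, so none of the 3 was at 0.

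AT3G55900 and AT3G55910 lie next to each other on chromosome 3 and had almost no reads in phyB. F-box proteins are the substrate-choosing subunits of ubiquitin ligases, and ADP-ribosylation factor GTPase-activating proteins switch off small GTPases of vesicle traffic. AT3G55900 had 0 and 0 reads in phyB, 102 and 93 reads in phyAB, 98 and 88 reads in WT red, and 103 and 100 reads in WT dark. The phyB libraries stood apart from all others, and the ranges of the other 3 groups overlapped. A count of 0 allows up to 0.188 and 0.136 CPM in the phyB libraries, for counting error only. Taking 3 reads over both phyB libraries as the limit, AT3G55900 was at least 67.3-fold lower in phyB than in WT red. AT3G55910 had 0 and 3 reads in phyB, 98 and 102 reads in phyAB, 104 and 83 reads in WT red, and 114 and 103 reads in WT dark. Again only phyB was low. Its summed reads per library size were 67.7-fold lower in phyB than in WT red, with a 95% exact counting interval of 22.8 to 331.

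In phyAB both loci were at the wild-type level. AT3G55900 averaged 5.04 ± 0.617 CPM in phyAB and 5.30 ± 0.311 CPM in WT red (SD, n = 2 each). The log2 change was −0.08 ± 0.18 (SE), with an adjusted p of 0.765. The ratio of summed reads was 0.945, and its 95% counting interval of 0.769 to 1.16 holds no change of the size seen in phyB. AT3G55910 averaged 5.22 ± 1.12 CPM in phyAB and 5.30 ± 0.130 CPM in WT red (SD, n = 2 each), a log2 change of −0.04 ± 0.18 with an adjusted p of 0.874. Its ratio was 0.964, with an interval of 0.786 to 1.18. The libraries of phyAB and WT red overlapped at both loci. The sign of these small changes turned without replicate 1 of phyAB, to 0.06 for AT3G55900 and 0.18 for AT3G55910, and neither was called.

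**Figure D1:**
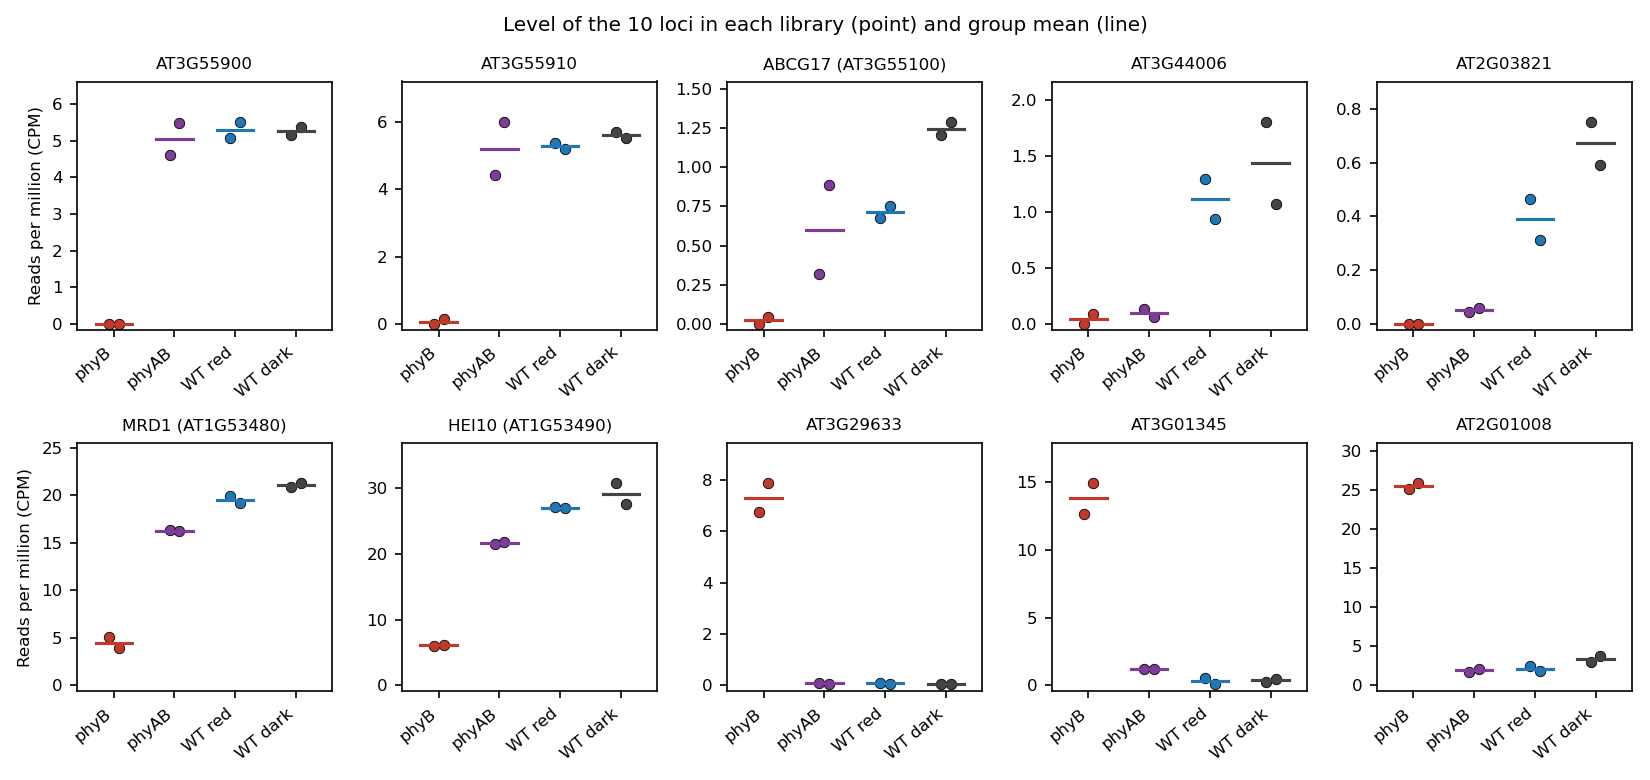
Level of each of the 10 loci in CPM (vertical axes, 1 scale per locus) in phyB, phyAB, WT red and WT dark; points are the 2 libraries of a group and lines are group means. The phyB libraries lie apart from WT red and WT dark at every locus, while phyAB lies nearer to wild type at most of them and overlaps phyB at AT3G44006, where it had 3 and 1 reads.

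The loci on either side of this pair were also lower in phyB, but by less. AT3G55890, a Yippee-family zinc-binding protein whose gene overlaps AT3G55900 on the opposite strand in RefSeq TAIR10.1, had 137 and 177 reads in phyB, 279 and 217 in phyAB, 307 and 267 in WT red, and 284 and 287 in WT dark. Its phyB libraries were the lowest. The log2 change was −0.99 ± 0.12 in phyB against WT red (adjusted p = 8.36e-13) and −0.36 ± 0.11 in phyAB against WT red (adjusted p = 0.00292). AT3G55920, a cyclophilin-like prolyl isomerase, overlaps AT3G55910 on the opposite strand. It had 92 and 120 reads in phyB, 243 and 143 in phyAB, 176 and 149 in WT red, and 189 and 163 in WT dark. Its log2 change was −0.73 ± 0.15 in phyB (adjusted p = 2.21e-05) and 0.09 ± 0.13 in phyAB (adjusted p = 0.62), each against WT red. These 2 comparisons share the WT red libraries. Whether the counting used strand is not given in the sources used here, so reads from overlapping genes cannot be told apart. The next tested locus on each side was not reduced. SUE4, a hydrolase-related protein, had a log2 change of 0.05 ± 0.06 in phyB against WT red (adjusted p = 0.551), and AT3G55940, a phospholipase C, was higher in phyB by 0.52 ± 0.13 (adjusted p = 0.000459).

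**Figure D2:**
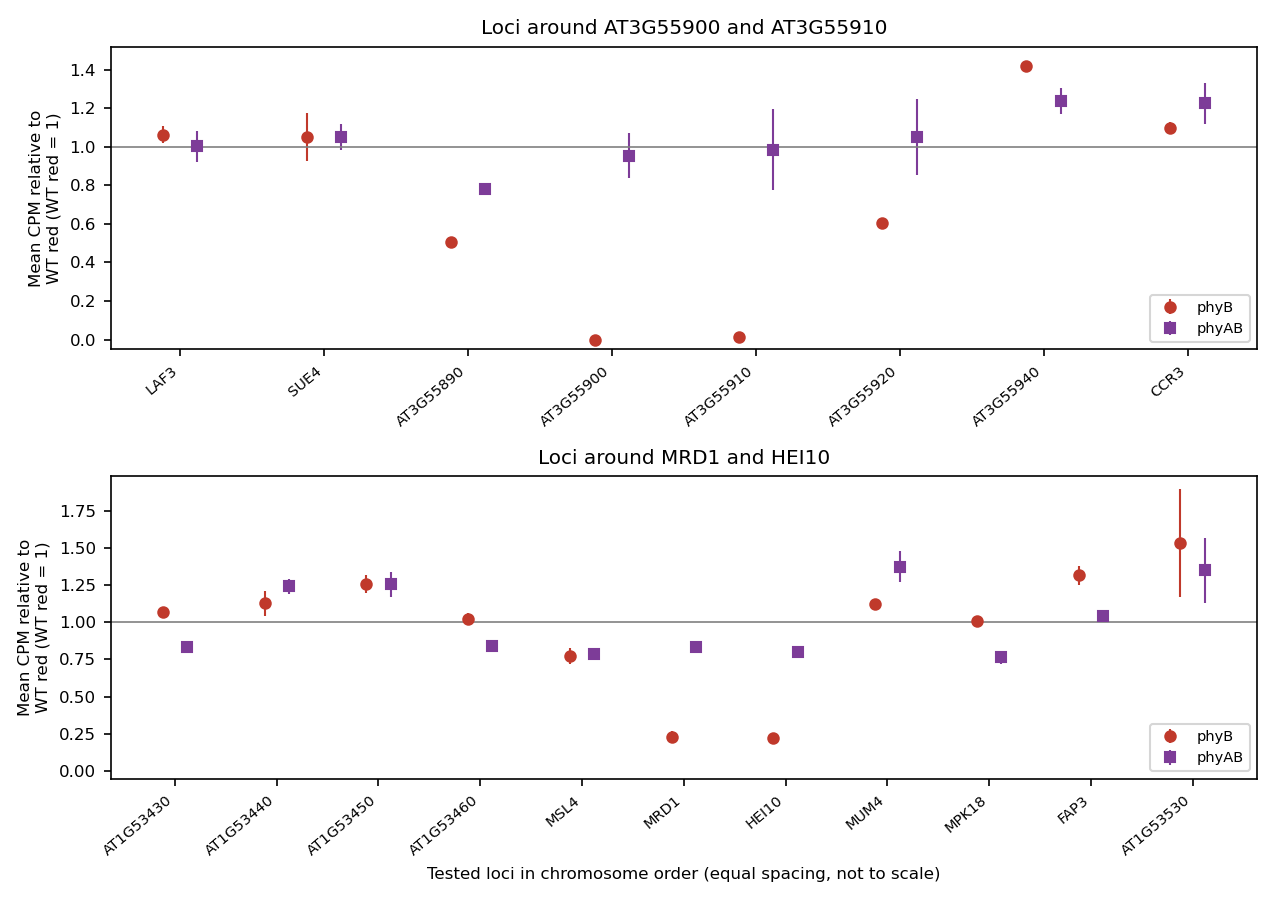
Mean CPM relative to WT red (vertical axis, WT red = 1) in phyB (circles) and phyAB (squares) for tested loci in chromosome order, evenly spaced, around AT3G55900 and AT3G55910 (upper panel) and around MRD1 and HEI10 (lower panel); bars are the SD of the 2 libraries of the mutant divided by the WT red mean. In phyB the ratios read 0.506, 0, 0.0127 and 0.603 from AT3G55890 to AT3G55920, and the low points of the lower panel are MRD1 and HEI10.

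MRD1 and HEI10 form the other adjacent pair, on chromosome 1, where their genes overlap on opposite strands. HEI10 promotes class I crossovers in meiosis as a member of the ZMM group. MRD1 had 81 and 87 reads in phyB, 363 and 275 in phyAB, 384 and 307 in WT red, and 416 and 396 in WT dark. HEI10 had 97 and 136 reads in phyB, 476 and 370 in phyAB, 524 and 430 in WT red, and 614 and 513 in WT dark. Transcripts of both were present in phyB at a reduced level, unlike those of AT3G55900. The log2 change in phyB against WT red was −2.15 ± 0.12 for MRD1 and −2.15 ± 0.11 for HEI10. In phyAB the levels were 1.89 ± 0.13 (MRD1) and 1.83 ± 0.11 (HEI10) higher on the log2 scale than in phyB.

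Both genes were slightly lower in phyAB than in WT red, a comparison in which 22.7% of all genes were called lower. HEI10 averaged 21.7 ± 0.211 CPM in phyAB and 27.1 ± 0.132 CPM in WT red (SD, n = 2 each). It fell by 0.32 ± 0.08 on the log2 scale in phyAB (adjusted p = 0.000499). The libraries of the 2 groups did not overlap, as for 70.0% of all genes. MRD1 averaged 16.3 ± 0.138 CPM in phyAB and 19.6 ± 0.457 CPM in WT red (SD, n = 2 each). It fell by 0.26 ± 0.10 on the log2 scale in phyAB (adjusted p = 0.0175), again without overlap. The call of MRD1 did not hold without replicate 1 of WT red (adjusted p = 0.121), without replicate 1 of phyAB (0.0725), without replicate 2 of phyAB (0.0663) or with DESeq2 (0.1). Over all alternatives its adjusted p ranged from 0.0124 to 0.567. Against WT dark, which shares no library with the comparison that chose the loci, the log2 change in phyAB was −0.43 ± 0.08 for HEI10 (adjusted p = 1.43e-06) and −0.37 ± 0.09 for MRD1 (adjusted p = 0.000459). With an assumed coefficient of variation of 0.1 in place of the observed spread, neither gene was called, at 0.193 for HEI10 and 0.317 for MRD1 against WT dark, and at 0.424 for HEI10 and 0.567 for MRD1 against WT red.

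On the flanks of this pair the changes in phyB were small. MUM4, which makes rhamnose for seed mucilage and whose gene overlaps HEI10, was higher by 0.16 ± 0.05 on the log2 scale in phyB (adjusted p = 0.0117) and by 0.45 ± 0.05 in phyAB (adjusted p = 7.78e-15), each against WT red. MSL4, a mechanosensitive channel on the other side, was lower in both mutants, with log2 changes of −0.36 ± 0.06 in phyB (adjusted p = 1.61e-06) and −0.34 ± 0.06 in phyAB (adjusted p = 2.59e-06). MRD1 and HEI10 also moved alike across all 8 libraries. Their genes overlap, and whether the counting used strand is not given, so their reads cannot be told apart. After centring, their log2 CPM differed by a root mean square of 0.108, less than the difference of either from any other tested locus. The next most alike was AT2G05510, with 769 and 967 reads in phyB, 3411 and 2685 in phyAB, 3269 and 2651 in WT red, and 4704 and 4172 in WT dark. It differed from MRD1 by 0.141 and from HEI10 by 0.136, so the pattern was found outside chromosome 1 as well. All these likenesses share the 8 libraries and include the phyB values that chose the loci.

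ABCG17 is a transporter of the ABCG subfamily that takes part, with ABCG18, in abscisic acid import. It had 0 and 1 reads in phyB, 7 and 15 reads in phyAB, 13 and 12 in WT red, and 24 and 24 in WT dark. Its phyB libraries were the lowest and its WT dark libraries the highest, with phyAB and WT red overlapping. The summed reads were 27.1-fold lower in phyB than in WT red, with a counting interval of 4.44 to 1114 that reflects the single read. Between phyAB and WT red the log2 change was −0.32 ± 0.50 (adjusted p = 0.646), and the interval of the ratio, 0.426 to 1.47, includes reductions of over 2-fold. ABCG17 passed the filter on low counts only through its wild-type reads, so its phyAB comparisons are a description. Against WT dark, ABCG17 was lower in phyAB, with a log2 change of −1.12 ± 0.44 (adjusted p = 0.0268). That call was lost without replicate 1 of WT dark (adjusted p = 0.0705), replicate 2 of WT dark (0.0985) or replicate 1 of phyAB (0.502), and with DESeq2 (0.195), within a range of 0.00619 to 0.502 over all alternatives. ABCG18, next to ABCG17 on the chromosome, had 9 and 4 reads in phyB, 10 and 8 in phyAB, 4 and 0 in WT red, and 0 and 0 in WT dark, too few to pass the filter on low counts. ABCG16, on the other side, was higher in both mutants than in WT red, by 0.30 ± 0.07 in phyB (adjusted p = 0.000349) and 0.49 ± 0.07 in phyAB (adjusted p = 5.45e-10).

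AT3G44006 and AT2G03821 were low in both mutants. AT3G44006 had 0 and 2 reads in phyB, 3 and 1 reads in phyAB, 25 and 15 reads in WT red, and 36 and 20 reads in WT dark. The mutant groups overlapped each other and lay below both wild-type groups. The reduction against WT red was 21.7-fold in phyB, with a counting interval of 5.63 to 185, and 11.1-fold in phyAB, with an interval of 4.01 to 42.7. In phyAB the log2 change against WT red was −3.39 ± 0.65 (adjusted p = 3.9e-06), and every alternative kept the call, with log2 changes from −4.11 without replicate 1 of phyAB to −3.00 without replicate 2. Against WT dark it was −3.74 ± 0.61 (adjusted p = 5.92e-08). AT3G44006 passed the filter on low counts only through its wild-type reads, so these phyAB results are a description. The phyAB to phyB ratio of 1.96 had a counting interval of 0.281 to 21.6, so the depth does not order the mutants.

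AT2G03821 gave few reads in any group, with 0 and 0 in phyB, 1 and 1 in phyAB, 9 and 5 in WT red, and 15 and 11 in WT dark. Each mutant library was below each wild-type library. It was at least 5.07-fold lower in phyB than in WT red. In phyAB it was 7.76-fold lower than in WT red, with a counting interval of 1.78 to 70.4 and an adjusted p of 0.0127. That call was lost without replicate 1 of WT red (adjusted p = 0.134), replicate 1 of phyAB (0.111) or replicate 2 of phyAB (0.0508), and with DESeq2 (0.0854), within a range of 0.0116 to 0.134 over the 9 alternatives in which it was tested. With only phyAB and WT red in the fit it did not pass the filter on low counts. Against WT dark it was 13.2-fold lower in phyAB, with a counting interval of 3.30 to 115. This is a description, since the locus passed the filter only through its WT dark reads. No fold is given between the mutants, which both had 3 reads or fewer. Its gene overlaps AT2G03822 and AT2G03823 on the opposite strand.

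Tested loci near these 2 are given next. AT3G44010, a ribosomal protein next to AT3G44006, had a log2 change of 0.04 ± 0.04 in phyB (adjusted p = 0.552) and −0.05 ± 0.04 in phyAB (adjusted p = 0.367), each against WT red. Further out, the cysteine proteinase AT3G43960 was higher in phyAB than in WT red by 1.07 ± 0.10 on the log2 scale (adjusted p = 3.64e-17), and the thylakoid lumen protein AT3G44020 was lower in phyAB, with a log2 change of −1.65 ± 0.21 (adjusted p = 5.91e-12), but had a log2 change of 0.29 ± 0.16 in phyB against WT red (adjusted p = 0.197). NMD3, a ribosome export adaptor next to AT2G03821, had a log2 change of −0.08 ± 0.04 in phyB (adjusted p = 0.143) and −0.08 ± 0.04 in phyAB (adjusted p = 0.144).

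AT3G29633 was the clearest locus present in phyB and nearly absent elsewhere. It had 108 and 175 reads in phyB, 2 and 1 reads in phyAB, 2 and 1 reads in WT red, and 1 and 1 reads in WT dark. The phyB libraries stood alone. Its summed reads were 86.9-fold higher in phyB than in WT red, with a counting interval of 29.4 to 424. Neither fold nor test is given for phyAB, which had 3 reads in all, as did WT red. The locus passed the filter on low counts only through its phyB reads. Per length, AT3G29633 reached 76.5 ± 8.33 RPKM (reads scaled by model length and depth) in phyB (SD, n = 2). That value rests on a deposited model of 96 bases, where its RefSeq exons hold 989, so its level per length is not ranked against the other loci. Near it, AT3G29630, a glycosyltransferase, had a log2 change of −0.53 ± 0.15 in phyB (adjusted p = 0.00388), and AT5MAT (AT3G29590), an acyltransferase of anthocyanin decoration, one of −1.84 ± 0.61 (adjusted p = 0.0139), each against WT red. No tested neighbour within 5 loci was raised at least 2-fold in phyB around any of the 10 loci.

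AT3G01345 was high in phyB and, at a lower level, also raised in phyAB. It had 203 and 331 reads in phyB, 27 and 21 in phyAB, 11 and 2 in WT red, and 5 and 9 in WT dark. The groups fell in 3 steps, with phyB highest, phyAB between, and the WT groups overlapping at the bottom. The log2 change in phyB against WT red was 5.21 ± 0.27, or 37.8-fold by summed reads with a counting interval of 21.9 to 71.5. In phyAB it was higher than in WT red by 1.72 ± 0.44 on the log2 scale (adjusted p = 0.000519), a 3.33-fold ratio with an interval of 1.78 to 6.70. WT red replicates 1 and 2 differ here, and the log2 change was 3.22 without replicate 1 and 1.10 without replicate 2. Without replicate 2 the call was lost (adjusted p = 0.0557, within 0.000108 to 0.0557 over all alternatives). Against WT dark the log2 change in phyAB was 1.74 ± 0.43 (adjusted p = 0.000298), and every alternative kept that call. AT3G01345 passed the filter on low counts only through its mutant reads, so these phyAB results are a description. Against phyB, phyAB was lower, with a log2 change of −3.49 ± 0.20. AT3G01340, a WD40-repeat protein next to it, had a log2 change of 0.06 ± 0.05 in phyB (adjusted p = 0.453) and 0.07 ± 0.05 in phyAB (adjusted p = 0.286), each against WT red.

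AT2G01008 had 403 and 575 reads in phyB, 39 and 36 in phyAB, 47 and 30 in WT red, and 61 and 69 in WT dark. Only phyB was high. The log2 change was 3.54 ± 0.15 in phyB against WT red, or 11.7-fold with a counting interval of 9.27 to 15.0. Between phyAB and WT red it was −0.18 ± 0.25 (adjusted p = 0.583), with a ratio of 0.878 and an interval of 0.630 to 1.22. The sign turned to 0.03 without replicate 1 of WT red. Against WT dark, phyAB was lower, with a log2 change of −0.81 ± 0.22 (adjusted p = 0.00109). AT2G01008 is the only one of the 10 with near-identical sequence elsewhere in RefSeq TAIR10.1. At 95% identity over at least 100 bases it had 10 matches, which covered 96.1% of its exons, the best at 99.05% identity. Of 26719 loci searched, 3.05% had over 50% of their exons matched elsewhere. How reads with several matching places were counted is not given in the sources used here, so the origin of its reads is uncertain. AT2G01021, the nearest tested locus, had a log2 change of −0.22 ± 0.03 in phyB (adjusted p = 3.34e-13) and 0.34 ± 0.02 in phyAB (adjusted p = 6.62e-29), each against WT red.

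**Figure D3:**
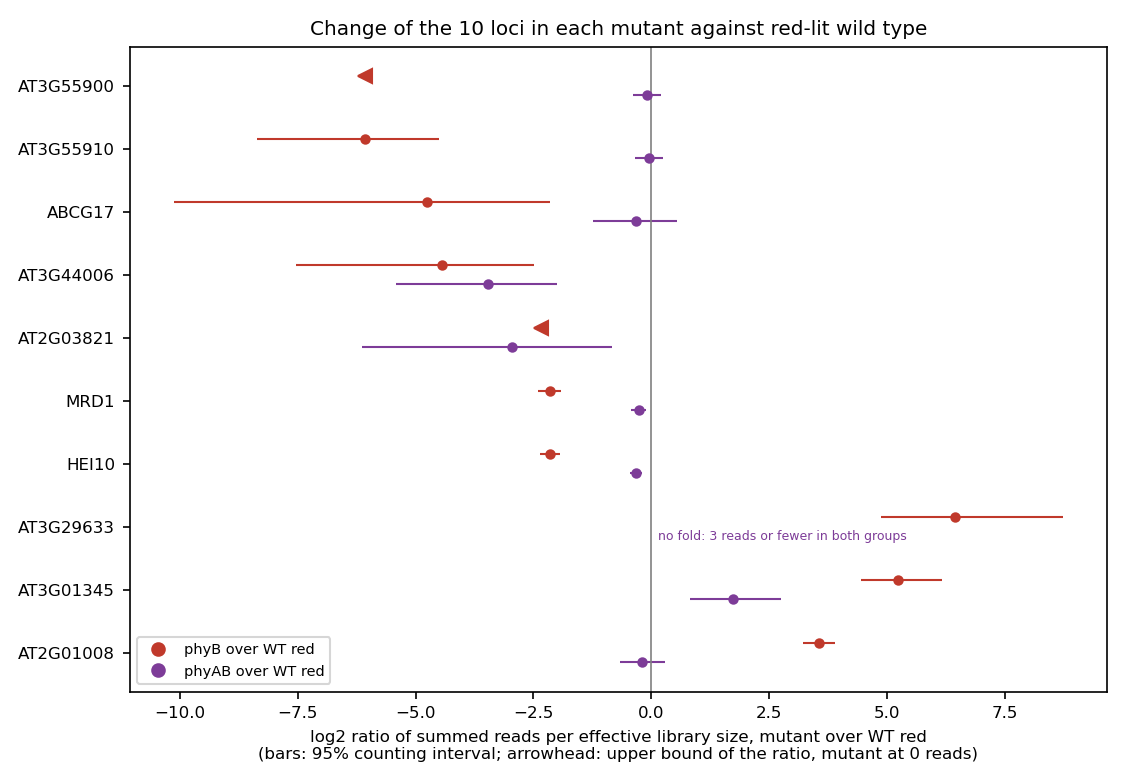
Ratio of summed reads per scaled library size, each mutant over WT red, on a log2 axis for the 10 loci; bars are 95% counting intervals and arrowheads mark upper bounds where phyB had 0 reads. For phyB the points range from a bound of at least 67.3-fold lower (AT3G55900) to 86.9-fold higher (AT3G29633), while for phyAB AT3G44006, AT2G03821 and AT3G01345 lie farthest from 0.

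Across the 10 loci, the count called in phyAB against WT red was close to that of all genes. All 10 passed the filter on low counts, AT3G29633 only through phyB, AT2G03821 only through WT dark and AT3G01345 only through the mutants. AT3G44006 and ABCG17 passed it only through the wild-type groups. The counts are thus a description. Of the 10, 1 was higher (22.3% of all 20716 tested genes were called higher), 4 were lower (22.7% of all genes) and 5 were not called at an adjusted p under 0.05, where 45.0% of all genes were called in either direction. At 2-fold or more, 1 was called higher and 2 lower, against 4.04% and 2.95% of all genes. The libraries of phyAB and WT red did not overlap at 5 of the 10, against 70.0% of all genes. The median log2 change of the 10 was −0.22, against 0.00 over all genes. Between phyAB and WT dark, 1 of the 10 was higher (27.2% of all genes) and 6 were lower (20.9% of all genes), where 48.2% of all genes were called. At 2-fold or more, 1 was called higher and 3 lower there, against 6.23% and 1.02% of all genes, and 8 of the 10 did not overlap, against 71.7% of all genes. Genotype and light differ together in that comparison. For phyB against WT red, which chose the loci, 27.2% of all genes were called, with 13.1% higher and 14.1% lower. At 2-fold or more those shares were 1.13% and 1.04%, and the groups did not overlap for 60.3% of all genes. These are given for scale, and nothing is read from them.

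Ranked by the size of the log2 ratio of group means with 0.1 CPM added, the loci held high places in phyB, as their choice by phyB levels had fixed. AT3G55900, AT3G29633, AT3G55910, AT3G01345 and AT2G01008 held ranks 1 to 5 of 20716 against WT red, and AT3G44006, ABCG17, AT2G03821, HEI10 and MRD1 ranks 8, 17, 37, 48 and 56. Among phyAB ratios to WT red, AT3G44006 had rank 81, AT2G03821 rank 376 and AT3G01345 rank 468. The other 7 had ranks from 7389 (HEI10) to 19603 (AT3G55910). Among them AT3G29633, at rank 17013, had 3 reads in phyAB and 3 in WT red, so its rank does not show an unchanged level. The comparisons share the WT red libraries.

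**Figure D4:**
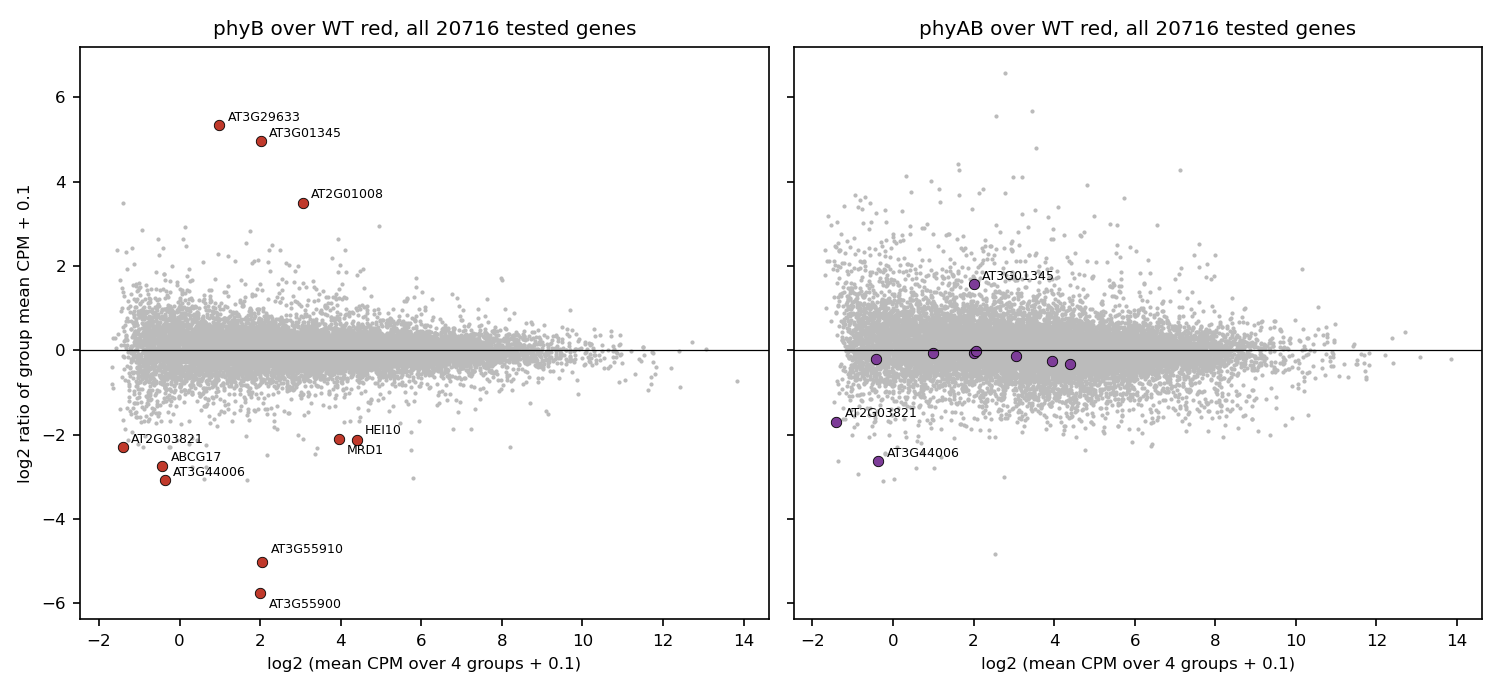
log2 ratio of group mean CPM with 0.1 CPM added, mutant over WT red (vertical axis), against the log2 mean over the 4 groups (horizontal axis) for all 20716 tested genes in grey and the 10 loci in colour; the left panel is phyB and the right panel is phyAB. Loci past a 2-fold ratio are named, all 10 in phyB and 3 in phyAB.

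Few of these transcripts were called for red light in wild type, which does not show that the others stayed level. In WT red against WT dark, 0 of the 10 were called higher (24.1% of all genes) and 1 was called lower (22.7% of all genes), where 46.8% of all tested genes were called. The libraries did not overlap at 7 of the 10, against 70.9% of all genes. The locus called was AT2G01008, which averaged 2.16 ± 0.392 CPM in WT red and 3.38 ± 0.459 CPM in WT dark (SD, n = 2 each). It was lower in WT red, with a log2 change of −0.63 ± 0.22 (adjusted p = 0.0127). The call was lost without replicate 2 of WT dark (adjusted p = 0.108) or replicate 2 of WT red (0.148), and with the assumed coefficient of variation (0.144), within 0.00773 to 0.148 over all alternatives. ABCG17 averaged 0.713 ± 0.0558 CPM in WT red and 1.25 ± 0.0612 CPM in WT dark (SD, n = 2 each), without overlap, but its log2 change of −0.80 ± 0.43 did not pass (adjusted p = 0.118). AT3G55900 (log2 change 0.01 ± 0.18), AT3G55910 (−0.08 ± 0.18), MRD1 (−0.10 ± 0.09) and HEI10 (−0.11 ± 0.08) lay near 0, with adjusted p of 0.26 or more. HEI10 was at −0.22 without replicate 2 of WT dark, and its lack of a call depended on that library. Fewer reads left wider errors for AT3G44006 (−0.35 ± 0.38), AT2G03821 (−0.75 ± 0.57) and AT3G01345 (0.02 ± 0.58). No fold is given for AT3G29633, with 3 reads in WT red and 2 in WT dark.

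In the 5 loci on each side of each of the 10, 75 in all, 55 could be tested. In phyB against WT red, 5 were higher and 8 lower, or 23.6% of those tested, against 27.2% of all genes. For phyAB, 10 were higher and 10 lower than in WT red, or 36.4%, against 45.0% of all genes. EXO70H1, an exocyst subunit in the window of ABCG17, was lower in phyB, with a log2 change of −1.04 ± 0.12 (adjusted p = 1.13e-13), and its change of −0.21 ± 0.11 in phyAB was not called (adjusted p = 0.0936), each against WT red. With 3 loci on each side, 30.3% were called in phyB and 36.4% in phyAB, and with 10 loci on each side 26.5% and 39.8%. The share in phyB thus lay below or above that of all genes with the window taken.

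Other loci had patterns near those of the 10, on a likeness that includes the phyB values used to choose them. For AT3G55900, AT3G55910 and ABCG17, the nearest locus outside the 10 was AT2G16190, with 3 and 12 reads in phyB, 77 and 44 in phyAB, 74 and 60 in WT red, and 102 and 96 in WT dark. IPS1, a non-coding RNA of the phosphate starvation response, was next nearest to ABCG17, with 2 and 3 reads in phyB, 30 and 33 in phyAB, 24 and 27 in WT red, and 26 and 26 in WT dark. Both had their lowest levels in phyB, as ABCG17 did. For AT3G44006, the nearest were AT2G03821 and then AT5G15360, which had 3 and 6 reads in phyB, 7 and 14 in phyAB, 57 and 37 in WT red, and 40 and 48 in WT dark. LBD26, a LATERAL ORGAN BOUNDARIES domain gene, and AT5G35940 were nearest to AT2G03821 and were likewise low in both mutants. For AT3G01345 and AT2G01008, the nearest locus outside the 10 was AT3G55240, with 22 and 15 reads in phyB, 0 and 3 in phyAB, and 0 in each wild-type library. AT3G47580, next nearest to AT2G01008, had 47 and 59 reads in phyB, 6 and 10 in phyAB, 11 and 12 in WT red, and 6 and 9 in WT dark.

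Genes related to ABCG17, HEI10 and MRD1 by family or pathway were counted as well. Of 7 other ABCG transporters, 6 were tested. In phyB against WT red, 3 were higher (13.1% of all genes) and 0 lower (14.1% of all genes), with a median log2 change of 0.17 against 0.00 over all genes. In phyAB against WT red, 5 were higher (22.3% of all genes) and 0 lower (22.7% of all genes), with a median of 0.53, and ABCG1, of suberin formation, had a log2 change of 1.29 ± 0.06 (adjusted p = 5.95e-42). Of 11 crossover and meiosis genes other than HEI10, 10 were tested. SHOC1, a ZMM protein, was the 1 called of the 10 in phyB against WT red (27.2% of all genes), higher by 1.64 ± 0.45 (adjusted p = 0.00263). DMC1, the meiotic recombinase, was the 1 called of the 10 in phyAB against WT red (45.0% of all genes), higher by 0.50 ± 0.16 (adjusted p = 0.00521). Of 16 genes of methionine and S-adenosylmethionine metabolism, 4 were higher and 3 lower in phyB, with a median of 0.00, where 13.1% of all genes were higher and 14.1% lower. In phyAB 13 were higher and 0 lower, with a median of 0.19, where 22.3% of all genes were higher and 22.7% lower, each against WT red. HOG1, which hydrolyses S-adenosylhomocysteine, had the lowest adjusted p in phyAB (2.03e-83) at a log2 change of 0.28 ± 0.01.

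Of 30 genes of DNA methylation and demethylation, 4 were higher and 1 lower in phyB, where 13.1% of all genes were higher and 14.1% lower. In phyAB 6 were higher and 4 lower, where 22.3% of all genes were higher and 22.7% lower, each against WT red. The medians were 0.08 in phyB and 0.15 in phyAB. DML1 (ROS1), a DNA glycosylase that removes methylated cytosine, averaged 73.3 ± 0.784 CPM in phyB, 31.3 ± 0.381 CPM in phyAB and 9.44 ± 0.576 CPM in WT red (SD, n = 2 each). The groups did not overlap, and the log2 change against WT red was 2.95 ± 0.08 in phyB (adjusted p = 1.23e-68) and 1.72 ± 0.09 in phyAB (adjusted p = 9.72e-38). DRM1, a de novo methyltransferase, was higher in phyAB by 2.09 ± 0.48 (adjusted p = 0.000103) and was not called in phyB, where its log2 change was −0.24 ± 0.67 (adjusted p = 0.842). Whether DML1 or any gene of these lists bears on the 10 loci was not tested.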

How the data were processed

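Each of the 8 libraries came with read counts and RPKM values for 27416 transcript models, 1 per locus, per the file headers. RNA was bound to oligo(dT) beads, per the labels' protocols. The deposited counts are whole numbers. The authors' RPKM values imply a whole model length for 100.0% of 24548 models with reads, within 0.01 bases. TAIR10 is the one build named, per the submitters' processing notes. For the aligner, the counter, strand and multi-mapping reads, nothing is given in the sources used here.

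Counts were fitted with edgeR 4.0.16 in R 4.3.3 (TMM scaling, filterByExpr at a minimum count of 10, quasi-likelihood test) over all 4 groups with 1 coefficient per group, and p-values were adjusted by Benjamini-Hochberg over 20716 genes, called under 0.05. The common biological coefficient of variation was 1.59%, and squared replicate differences were 1.35 to 1.48 times counting noise. Simulated data with known changes tested the script. Count ratios use summed reads over scaled library sizes with exact 95% binomial intervals, which cover counting error only. A group at 0 was set to 3 reads over both libraries, and no fold is given where both groups had 3 reads or fewer. RPKM served only for levels between genes.

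Gene names, products and overlaps came from RefSeq TAIR10.1, with 26719 loci matched. Near-identical copies were searched with BLAST 2.17.0. Coordinates and sequences are not printed, since the files use TAIR10. The named genes were the 10 loci, PHYA and PHYB, the first tested neighbour on each side, neighbours within 5 loci and list genes changed at least 2-fold (else the list gene with the lowest adjusted p in phyAB against WT red), loci at 3 reads or fewer against 60 or more, and the 2 loci nearest each member by root mean square difference of centred log2 CPM (prior count 2). The loci, lists and tests were chosen with earlier results of these data known. Alternatives were another scaling (RLE), DESeq2 1.42.0, no filter, only the compared groups, the replicate number as a block, each library left out, and summed libraries with an assumed coefficient of variation of 0.1.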

Additional observations from a re-analysis of the deposited data

How the results depend on the processing

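DESeq2 gave no adjusted p for AT2G03821 in phyB against WT red. With DESeq2, 3651 genes were called in phyB against WT red, against 5633 by edgeR. With libraries summed and an assumed coefficient of variation of 0.1, 2740 genes were called in phyAB against WT red (9330 with the observed spread), 2902 in phyAB against WT dark (9978), 3479 in WT red against WT dark (9689), 625 in phyB against WT red (5633) and 3956 in phyAB against phyB (10392). The number of the 10 loci called in phyAB against WT red was 5; it was 3 with DESeq2, 3 with the assumed variation and 3 to 4 with 1 library left out. In WT red against WT dark it was 1; it was 0 with the assumed variation and 0 to 1 with 1 library left out. Same-numbered libraries did not vary together (r of −0.018 to 0.009 over 15272 genes), and with the replicate number as a block 9342 genes were called in phyAB against WT red, 9990 in phyAB against WT dark, 9699 in WT red against WT dark, 5662 in phyB against WT red and 10413 in phyAB against phyB; the number of the 10 loci called was unchanged at 5, 7 and 1 in the first 3 of these. The adjusted p of HEI10 in phyAB against WT red was 0.424 with the assumed variation. With 1 library left out, genes called ranged from 7682 to 8154 in phyAB against WT red, 8341 to 8815 in phyAB against WT dark, 8111 to 8751 in WT red against WT dark, 4234 to 4746 in phyB against WT red and 8897 to 9392 in phyAB against phyB; the lone library of a group was then assumed to vary like the others. The cause of these shifts was not tested.

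Signs that turned were all of uncalled changes. In WT red against WT dark, AT3G55900 was at −0.0078 with RLE scaling and −0.0062 with DESeq2, against 0.0053, and AT3G01345 was at −0.0027 with DESeq2. With 1 library left out, the log2 change ranged from −0.0603 to 0.068 for AT3G55900, −0.71 to 0.037 for AT3G44006 and −1.49 to 0.64 for AT3G01345 in that comparison. In phyAB against WT red it ranged from −0.20 to 0.055 for AT3G55900, −0.26 to 0.18 for AT3G55910, −1.15 to 0.32 for ABCG17 and −0.34 to 0.028 for AT2G01008. In phyAB against WT dark it ranged from −0.19 to 0.063 for AT3G55900 and −0.35 to 0.10 for AT3G55910.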

Other observations

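Searched over all loci, few transcripts were switched between 3 reads or fewer and 60 reads or more, summed over both libraries of a group. In phyB against WT red, 2 loci were low and 1 was high. All 3 were among the 10 (AT3G55900, AT3G55910 and AT3G29633), which were chosen for their phyB levels, so nothing is read from this. In phyAB against WT red, 1 locus was low and 3 were high, and none was among the 10. The low locus was AT3G05950, a germin-like cupin, with 181 and 266 reads in phyB, 2 and 1 in phyAB, 104 and 69 in WT red, and 105 and 138 in WT dark. It was thus nearly absent in phyAB alone, and in phyB it was higher than in WT red by 1.25 on the log2 scale (adjusted p = 9.15e-12). The 3 high loci in phyAB were CRU2, a seed storage cruciferin, TAT3, a tyrosine aminotransferase, and ACS9, an ethylene biosynthesis enzyme. CRU2 had 37 and 35 reads in phyAB and 1 and 1 in WT red, TAT3 had 73 and 47 in phyAB and 3 and 0 in WT red, and ACS9 had 33 and 31 in phyAB and 1 and 1 in WT red. In WT red against WT dark, 0 loci were low and 14 were high, none of them among the 10. The 5 with most reads were SDR1, AT1G26761, AT3G52740, GDPD6 and AT1G10657. The counts depend on the limits. At 10 reads or fewer, 3 loci were low and 4 high in phyB, with 2 and 1 of them among the 10. In phyAB, 3 were low and 22 high at that limit.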
